A study of Mus musculus with 2 samples.

Results

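The genes described here mark successive stages of granule neuron production in the adult hippocampus. They are Hopx, Eomes, Neurod1, Neurod2, Prox1, Dcx, Calb2, Igfbpl1 and Sox11, taken by symbol from the 2 deposited count matrices, so that 9 of 32285 measured genes are covered. On the mouse build GRCm38, in the GENCODE M21 annotation, Hopx lies on chromosome 5 (77086988 to 77115121), Eomes on 9 (118478212 to 118486132), Neurod1 on 2 (79452521 to 79456751), Neurod2 on 11 (98325415 to 98329648) and Prox1 on 1 (190118035 to 190170714). Dcx lies on chromosome X (143855842 to 143933311), Calb2 on 8 (110137502 to 110168210), Igfbpl1 on 4 (45809468 to 45826923) and Sox11 on 12 (27334264 to 27342574). Each is on the minus strand except Eomes.

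In the subgranular zone of the dentate gyrus, radial glia-like stem cells divide rarely and give rise to intermediate progenitors, which amplify and become neuroblasts. Neuroblasts turn into immature granule neurons, which extend processes and, over weeks, either die or join the granule cell layer. Transcription factors act in sequence along this path, and cytoskeletal and calcium-binding proteins mark its middle steps, which is why these genes are used to stage the lineage.

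RNA was measured in single cells of hippocampi of 60TM mice and WT mice, all 7 weeks old. The 60TM mice carry the GFAP-hGFAP transgene, that is human GFAP under a GFAP promoter, on a C57BL6/J background and serve as a model of Alexander disease, in which GFAP is altered and astrocytes fail. The WT mice are C57BL6/J without the transgene. After papain digestion, single cells went through the Chromium 3' chemistry of 10x Genomics, which counts unique molecular identifiers (UMIs), 1 per captured RNA molecule. Each genotype is 1 library pooled from 3 mice, so no difference between genotypes could be tested, no p-value is given, and the spread between mice is unknown. Intervals are 95% and cover counting error only. GFAP promoters are active in radial glia-like cells as well as in astrocytes. Mouse Gfap stood at 1107 counts per 1000000 UMIs of the class (CPM) in 60TM radial glia-like cells and 461 CPM in WT ones, a ratio of 2.40 (2.19 to 2.63). Whether reads of the human transgene were counted as mouse Gfap was not tested.

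The 60TM library held 8733 barcodes and 80684152 UMIs, and the WT library 6861 barcodes and 63532407 UMIs. After removal of shallow, damaged and doublet barcodes, 7575 cells of 60TM (median 7502 UMIs) and 6086 cells of WT (median 7216 UMIs) were kept. The libraries shared 20 barcodes, of which 14 were kept. The 9 genes were left out of clustering and of the marker lists, so their levels did not decide the class of a cell. In all, 27 clusters were made from both libraries together. The radial glia-like cluster was led by genes that include Frzb, Thrsp and Hopxos and carried 5 of 8 markers of that class. Dividing and immature cells fell into 1 cluster, which was split again, a step set after the clusters had been seen. The split gave a dividing group (10 of 10 cell division markers), an earlier immature group led by Tac2 and Scrt2, a later immature group led by Bhlhe22, Adamts18 and Prdm8, and a shallow immature group of 13 60TM cells and 11 WT cells. The neuron cluster carried 12 of 12 neuronal markers and held both excitatory and inhibitory cells. Counts of Hopx, Eomes, Neurod1 and Prox1 are uncertain where other genes overlap them (Hopxos, Gm33460, Cerkl and Gm26755, Gm28172 and Prox1os), since the use of strand in counting is not stated. In dissociated tissue, fewer cells of a type and poorer recovery of that type cannot be told apart.

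The 60TM library held a larger share of radial glia-like cells and a smaller share of immature granule neurons than the WT library, while dividing cells took similar shares. Radial glia-like cells were 384 of 7575 kept 60TM cells, or 5.07% (4.59 to 5.59), against 143 of 6086 WT cells, or 2.35% (1.98 to 2.76), a ratio of 2.16 (1.78 to 2.63). Dividing cells were 94 cells or 1.24% in 60TM and 70 cells or 1.15% in WT, with a ratio of 1.08 (0.783 to 1.49) whose interval includes 1. Immature granule neurons were 202 cells or 2.67% in 60TM and 250 cells or 4.11% in WT, a ratio of 0.649 (0.537 to 0.785). The later immature group had 103 cells (1.36%) in 60TM and 155 cells (2.55%) in WT, a ratio of 0.534 (0.412 to 0.689). The earlier immature group had a ratio of 0.823 (0.602 to 1.12), with 86 60TM cells and 84 WT cells. As shares of the immature neurons, the ratios were 0.822 (0.635 to 1.06) for later cells and 1.27 (0.927 to 1.73) for earlier cells. Both intervals include 1, so a shift between the groups was not beyond counting error. Neurons were 88 cells (1.16%) in 60TM and 69 cells (1.13%) in WT.

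**Figure D1:**
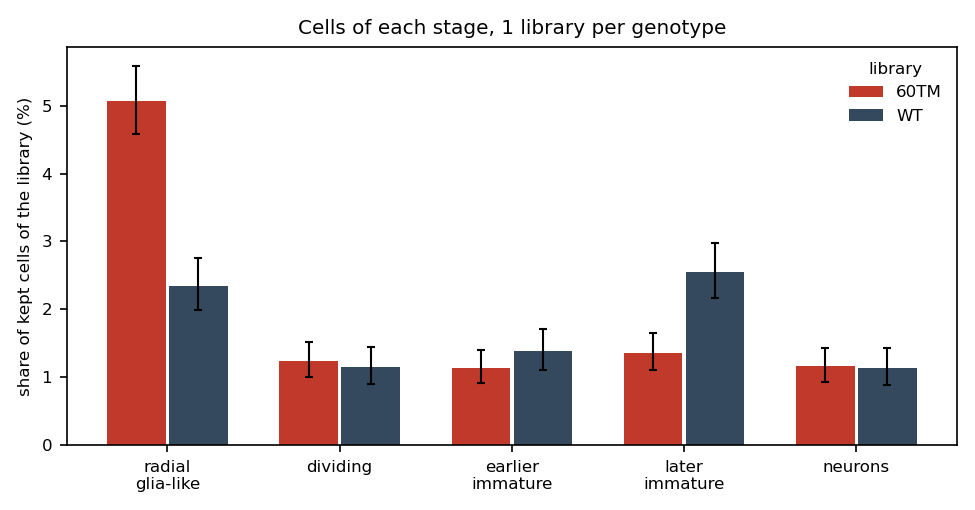
Share of all kept cells of each library (vertical axis, percent) by stage, with 60TM bars left of WT bars and exact 95% binomial intervals for counting error. The radial glia-like bar is at 5.07% in 60TM and 2.35% in WT, and the later immature bar at 1.36% in 60TM and 2.55% in WT.

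These shares move with the other cells in each library, since oligodendrocytes were 7.60% of 60TM cells and 18.6% of WT cells. Without microglia, border macrophages and oligodendrocytes in the denominator, radial glia-like cells were 8.72% in 60TM and 5.17% in WT, a ratio of 1.69, and immature neurons 4.58% in 60TM and 9.04% in WT, a ratio of 0.507. Counted among the radial glia-like, dividing and immature cells alone, radial glia-like cells were 56.5% in 60TM and 30.9% in WT. Immature neurons were 29.7% of these cells in 60TM and 54.0% in WT. The direction for radial glia-like cells and for immature neurons was thus the same with each of the 3 denominators. With the last one this was fixed in advance. Among all kept cells, radial glia-like cells had the highest and immature neurons the lowest ratio of the classes that make it up. Dividing cells had ratios of 0.843 and 0.914 with the other denominators, on the other side of 1 than among all kept cells, and both intervals include 1.

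With immature neurons split into the earlier and later groups, without the shallow group, each gene peaked at the same stage in both libraries. In the shallow group Calb2 was at 1088 CPM in 60TM and 1647 CPM in WT. In the later group it was at 1249 CPM in 60TM and 1302 CPM in WT. With the shallow group counted, Calb2 thus peaked there in WT only. For Neurod2 in 60TM, the later group (234 CPM on 170 UMIs) was close to neurons (207 CPM, 184 to 232). Whether that order lay beyond counting error was not tested. With all immature neurons as 1 class, Neurod2 was instead highest in neurons in 60TM and in immature neurons in WT. Among these stages, Hopx was highest in radial glia-like cells, Eomes in dividing cells, and the other 7 in an immature group. Within the immature cells Eomes was lower and Prox1, Neurod2 and Calb2 were higher in the later group than in the earlier one. The later over earlier ratio of Eomes was 0.253 (0.189 to 0.335) in 60TM and 0.197 (0.153 to 0.252) in WT. That of Prox1 was 2.63 in 60TM and 3.19 in WT, and that of Neurod2 was 2.88 in 60TM and 2.41 in WT. That of Calb2 was 1.95 in 60TM and 2.34 in WT. Igfbpl1 was lower there, with 0.631 in 60TM and 0.609 in WT. Hopx was the member whose order differed, with a later over earlier ratio of 0.383 (0.211 to 0.662) in 60TM and 1.31 (0.721 to 2.45) in WT, on 18 and 55 UMIs in 60TM and 35 and 18 UMIs in WT.

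**Figure D2:**
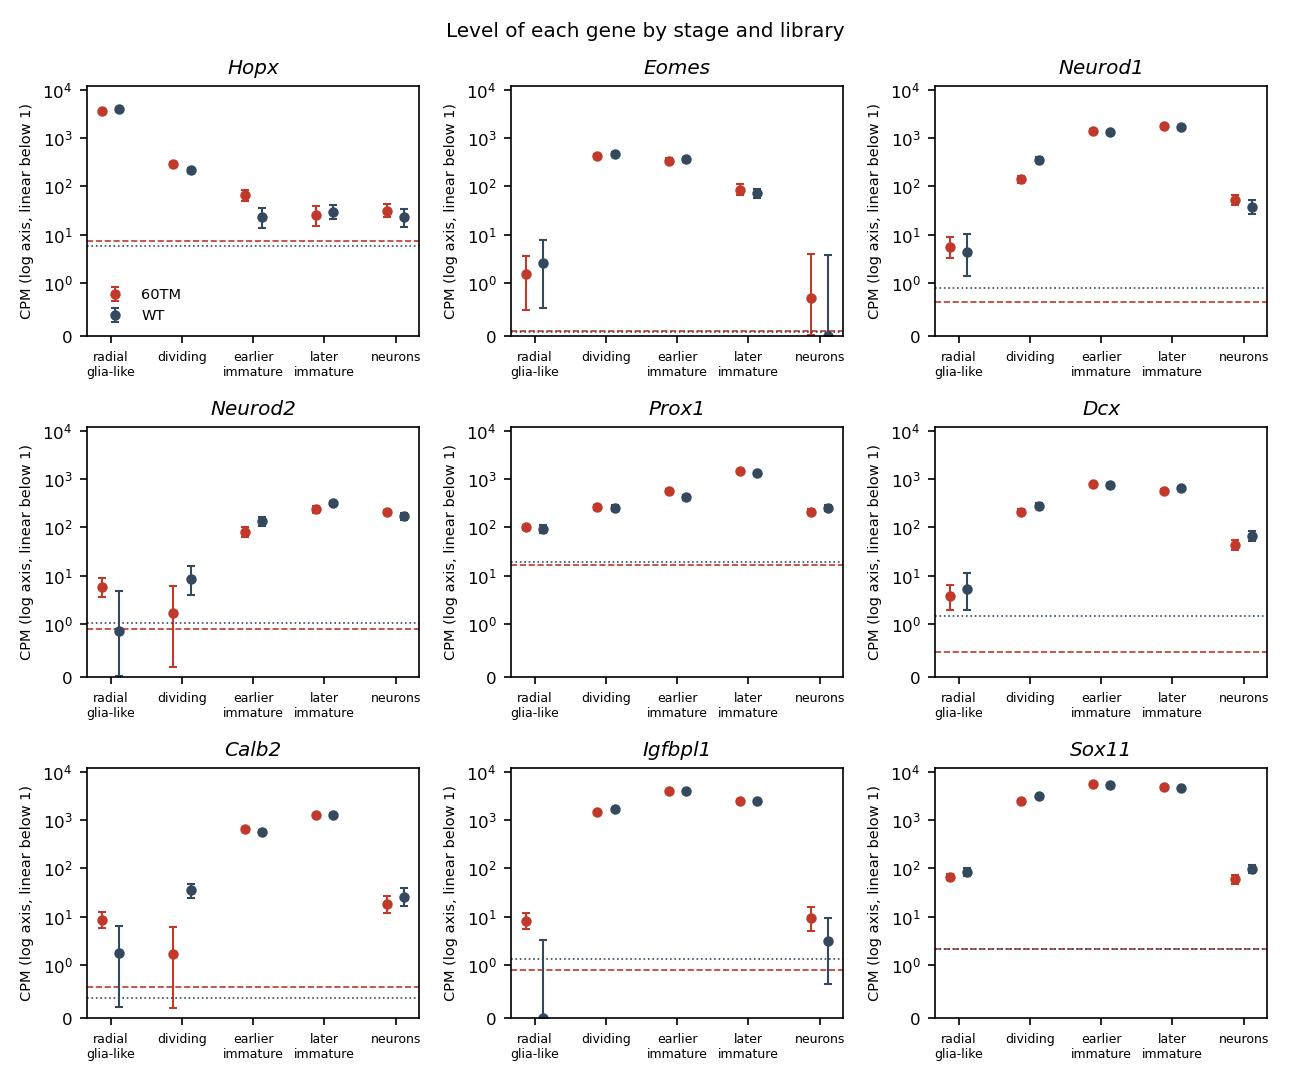
Level of each gene (vertical axis, CPM on a log axis that is linear below 1) at 5 stages, with 60TM points left of WT points and exact 95% Poisson intervals. Horizontal lines give the level in microglia of the same library, dashed for 60TM and dotted for WT. Hopx is highest in radial glia-like cells, at 3565 CPM in 60TM and 4023 CPM in WT, while Sox11, Igfbpl1 and Dcx are highest in the earlier immature group.

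The stages named here hold most of the UMIs of some of these genes and a small part of others. Immature granule neurons held 89.4% of Neurod1 UMIs in 60TM and 86.9% in WT. Eomes UMIs lay in dividing cells (57.7% in 60TM and 55.9% in WT) and immature neurons (39.7% in 60TM and 42.0% in WT). Hopx is also expressed by astrocytes, which held 57.6% of its UMIs in 60TM and 58.1% in WT, more than radial glia-like cells (32.6% in 60TM and 29.4% in WT). Prox1 is also made by oligodendrocytes, which held 39.0% of its UMIs in 60TM and 51.3% in WT. Dcx was shared with neuroblasts of the interneuron lineage, marked by Dlx genes (18.4% in 60TM and 10.7% in WT), and Calb2 with Cajal-Retzius cells (17.0% in 60TM and 14.9% in WT). In those neuroblasts Dcx was at 1049 CPM in 60TM and 931 CPM in WT. That is above its level in the earlier immature group, 780 CPM in 60TM and 749 CPM in WT. A level over the whole library therefore mixes stage with cell type.

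In radial glia-like cells Hopx, a homeodomain protein that marks quiescent stem cells, was abundant in both libraries and slightly lower in 60TM. It stood at 3565 CPM (3501 to 3630) in 60TM and 4023 CPM (3908 to 4140) in WT, a ratio of 0.886 (0.856 to 0.917). After each cell was thinned to 2000 UMIs, 381 of 381 60TM cells and 133 of 138 WT cells had a Hopx UMI, against 1.63% of 60TM microglia and 0.961% of WT microglia, cells that should lack the gene. Prox1, a homeobox factor that sets granule cell identity, was at 99.1 CPM in 60TM and 91.8 CPM in WT, a ratio of 1.08 (0.864 to 1.36). Sox11, an SRY-related factor of neuroblasts and immature neurons, was at 66.7 CPM in 60TM and 84.0 CPM in WT, a ratio of 0.794 (0.622 to 1.02). The levels of Prox1 and Sox11 thus differed by less than counting error.

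The other 6 genes were at most at 8.57 CPM in radial glia-like cells and had fewer than 50 UMIs over both libraries, the minimum for a gene to be counted. Igfbpl1 had 27 UMIs in 60TM and 0 in WT, a ratio of 3.18 when WT is set to a floor of 3 UMIs. The counting interval of its ratio ran from 2.41 upwards without limit. Calb2 had 28 UMIs in 60TM and 2 in WT, a ratio of 4.94 (1.25 to 42.8), and Neurod2 had 19 in 60TM and 1 in WT, a ratio of 6.71 (1.07 to 279). Per cell these are rare counts, since 1.31% of 60TM cells and 0.725% of WT cells had a Calb2 UMI after thinning. Of the 3 members counted, none of them passed 1.5-fold in 60TM, with 0 higher and 0 lower. With no doublets removed, or with cells classed by their highest marker score, 1 member was higher and 1 lower. The higher one was not among these 3. Over the alternatives their ratios reached at most 0.937 for Hopx, 1.15 for Prox1 and 1.12 for Sox11. Among the 8624 genes counted in this class, 5.52% were higher and 7.06% lower by that rule.

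Around these genes, 1 of 23 stem cell and quiescence genes was at least 1.5-fold higher in 60TM radial glia-like cells and 4 were at least 1.5-fold lower. The median log2 ratio was -0.11 in the list and -0.05 over all genes counted. Nes, an intermediate filament of neural stem cells, was at 63.6 CPM in 60TM and 32.0 CPM in WT, a ratio of 1.99 (1.39 to 2.90). Fabp7, a fatty acid-binding protein of radial glia, was at 700 CPM in 60TM and 2263 CPM in WT, a ratio of 0.310 (0.292 to 0.327). Hes5, a target of Notch signalling, was at 313 CPM in 60TM and 901 CPM in WT, a ratio of 0.347. Id2 and Id3, inhibitors of basic helix-loop-helix factors, had ratios of 0.511 and 0.574. Sox2 (1.04), Sox9 (1.02) and Hes1 (0.999), stem cell regulators of the same list, had ratios close to 1. The 8 markers of the class summed to 2664 CPM in 60TM and 2672 CPM in WT. They also served to name the class, so their likeness is not separate evidence. Immediate early genes, which rise during dissociation as well as in activated cells, summed to 2146 CPM in 60TM and 1229 CPM in WT. A list of 12 reactive astrocyte genes summed to 2666 CPM in 60TM and 1388 CPM in WT, and choroid plexus markers to 304 CPM in 60TM and 21.7 CPM in WT. The part of these differences in the results was not tested.

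In dividing cells Neurod1 stood lower in 60TM than in WT, while the ratios of Eomes and Prox1 had intervals that include 1. Neurod1, a basic helix-loop-helix factor required for granule neuron production, was at 139 CPM (119 to 162) in 60TM and 358 CPM (323 to 396) in WT, a ratio of 0.388 (0.322 to 0.467). A UMI of Neurod1 was seen in 29 of 94 60TM cells and 39 of 70 WT cells. After thinning, the share was 13.3% (12 of 90) in 60TM and 31.9% (22 of 69) in WT, against under 0.2% of microglia in either library. The counts were spread over several cells, as the 5 cells with the most Neurod1 held 42.5% of its UMIs in 60TM and 32.8% in WT. Eomes, a T-box factor of intermediate progenitors, was at 423 CPM (387 to 462) in 60TM and 470.0 CPM (430 to 513) in WT, a ratio of 0.900 (0.794 to 1.02). Its thinned share of cells was 35.6% (25.7 to 46.3) in 60TM and 56.5% (44.0 to 68.4) in WT. The median was 3 Eomes UMIs per cell in 60TM and 5.5 in WT, and 1 cell held 14.4% of the Eomes UMIs in 60TM, against 5.8% in WT. The ratio of the thinned shares was 0.629 (0.382 to 1.03). The ratio of Eomes levels was 0.596 with cells thinned and 1.01 with no doublets removed, so it depended on the processing.

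Of the other members counted in dividing cells, Dcx, Sox11 and Igfbpl1 had ratios below 1, Hopx above 1 and Prox1 close to 1, and none of these passed 1.5-fold. Hopx was at 293 CPM in 60TM and 213 CPM in WT, a ratio of 1.37 (1.16 to 1.63). Dcx, a microtubule-binding protein of migrating neuroblasts, was at 212 CPM in 60TM and 282 CPM in WT, a ratio of 0.750 (0.632 to 0.890). Sox11 was at 2444 CPM in 60TM and 3113 CPM in WT, a ratio of 0.785 (0.747 to 0.825). Igfbpl1, a secreted protein of the insulin-like growth factor-binding family, was at 1447 CPM in 60TM and 1666 CPM in WT, a ratio of 0.869 (0.813 to 0.929), which was 1.01 with no doublets removed and 1.03 when cells from 200 genes and up to 5% mitochondrial UMIs were kept. Prox1 was at 261 CPM in 60TM and 251 CPM in WT, a ratio of 1.04 (0.880 to 1.23). Calb2, the calcium-binding protein calretinin that appears briefly in young granule neurons, had 2 UMIs in 60TM and 37 in WT, a ratio of 0.0479 (0.00559 to 0.186). That rests on 2 of 94 60TM cells and 8 of 70 WT cells, and the count is under the minimum of 50 UMIs. Of the 7 members counted in dividing cells, 0 passed 1.5-fold upwards and 1, Neurod1, downwards. Over the 6431 genes counted, 4.23% were higher and 4.4% lower.

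**Figure D3:**
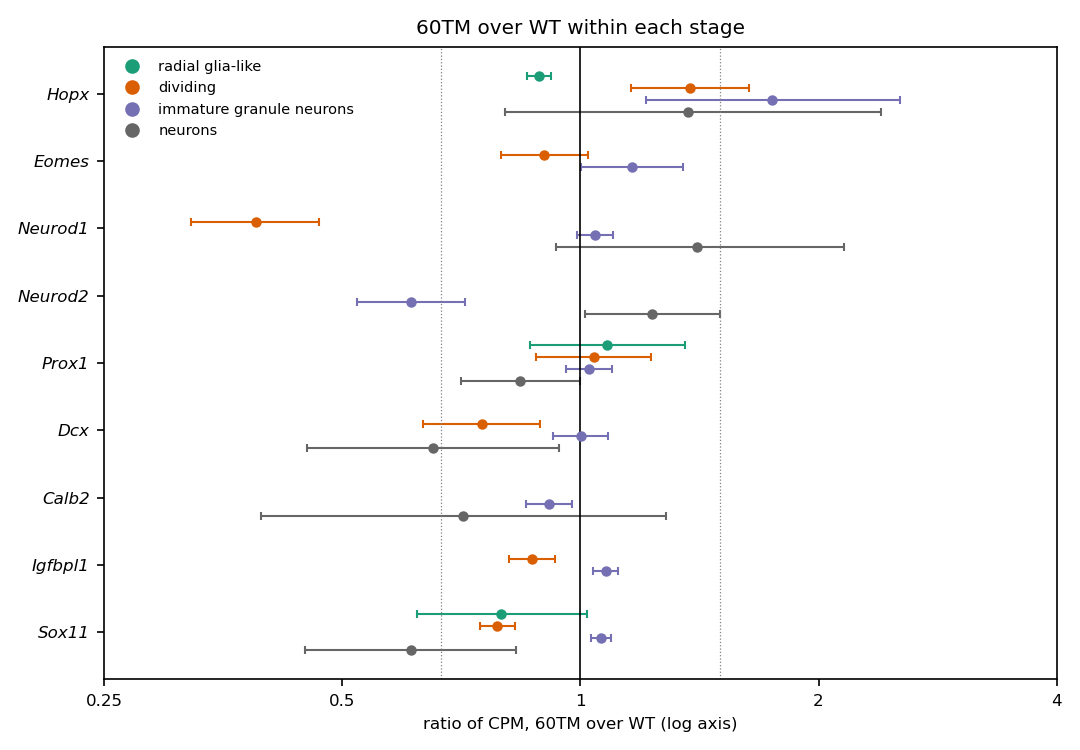
Ratio of CPM, 60TM over WT (horizontal log axis), for each gene with at least 50 UMIs in the stage, with exact 95% counting intervals; colours mark stages, the solid line is equality and dotted lines mark 1.5-fold. Neurod1 in dividing cells is at 0.388 and Neurod2 in immature granule neurons at 0.611, while Prox1 lies between 0.839 and 1.08 at all 4 stages.

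The dividing cells differed between the libraries in make-up. Cells with at least 3 UMIs of interneuron-lineage markers were 30 of 94, or 31.9% (22.7 to 42.3), in 60TM and 10 of 70, or 14.3% (7.07 to 24.7), in WT. Those markers summed to 525 CPM in 60TM and 268 CPM in WT, and radial glia-like markers to 1096 CPM in 60TM and 822 CPM in WT. Without the cells that carry interneuron-lineage markers, an alternative chosen after the data were seen, the Neurod1 ratio was 0.376, that of Eomes 0.799, that of Sox11 0.682 and that of Hopx 1.54. Cells with fewer such UMIs stayed in, and the part of the make-up in these ratios was not tested. Immediate early genes summed to 1769 CPM in 60TM and 1065 CPM in WT, and choroid plexus markers to 238 CPM in 60TM and 18.8 CPM in WT. The part of both in the result was not tested.

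Genes of the cell cycle stood close to each other in the 2 libraries. Of 21 cell cycle genes, 0 passed 1.5-fold in either direction in 60TM dividing cells, with a median log2 ratio of -0.04 against 0.00 over all genes. Ccnd2, a G1 cyclin, had the highest ratio, 1.37 (1.30 to 1.44), and Nusap1, a spindle protein, the lowest, 0.757 (0.618 to 0.927). Mki67, a proliferation antigen, was at 455 CPM in 60TM and 427 CPM in WT. Several genes of the list, among them Mki67 and Nusap1, were also markers that named the dividing class. For those genes likeness between the libraries was partly built in. The count of 0 became 3 higher genes without the cells of interneuron-lineage markers and 4 lower genes with no doublets removed. Of 21 regulators of progenitors and granule neurons, 0 were higher and 3 lower by 1.5-fold. The lower ones were Bhlhe22 (0.547), a basic helix-loop-helix factor, Id2 (0.606) and Emx1 (0.664), a cortical homeobox factor. The count of 3 became 0 at resolution 2 and when cells from 200 genes and up to 5% mitochondrial UMIs were kept, and 6 with cells classed by their highest marker score. Neurog2, which acts upstream of Neurod1 in the lineage, was at 195 CPM in 60TM and 229 CPM in WT, a ratio of 0.850 (0.707 to 1.02). Insm1, a zinc finger factor of intermediate progenitors, was at 393 CPM in 60TM and 357 CPM in WT, a ratio of 1.10 (0.960 to 1.26).

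In immature granule neurons 7 of the 9 genes had ratios between 0.914 and 1.16, Neurod2 was lower in 60TM and Hopx higher. Neurod2, a basic helix-loop-helix factor related to Neurod1 that acts in later neuronal differentiation, was at 149 CPM (130 to 169) in 60TM and 243 CPM (222 to 266) in WT, a ratio of 0.611 (0.521 to 0.714). It was detected in 106 of 202 60TM cells and 166 of 250 WT cells. After thinning, the share was 21.3% (15.7 to 27.8) in 60TM and 36.5% (30.3 to 43.0) in WT, against 0.285% of 60TM microglia and 0.288% of WT microglia. The difference was present within both immature groups. It was 81.3 CPM in 60TM and 133 CPM in WT in the earlier group, a ratio of 0.612 (0.446 to 0.837), and 234 CPM in 60TM and 320 CPM in WT in the later group, a ratio of 0.732 (0.607 to 0.879).

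Neurod1 and Neurod2 thus differed at successive stages, and the sequences around their starts are shown because these genes encode related factors. The windows span 250 bases before to 50 after the gene start, from RefSeq on GRCm38.p6, both on the minus strand. Neurod1 is at chr2:79456587-79456886 and Neurod2 at chr11:98329596-98329895. Capitals mark the E-box CAGATG, a motif class bound by such factors; CAGATG and CAGCTG were searched on both strands.
Neurod1: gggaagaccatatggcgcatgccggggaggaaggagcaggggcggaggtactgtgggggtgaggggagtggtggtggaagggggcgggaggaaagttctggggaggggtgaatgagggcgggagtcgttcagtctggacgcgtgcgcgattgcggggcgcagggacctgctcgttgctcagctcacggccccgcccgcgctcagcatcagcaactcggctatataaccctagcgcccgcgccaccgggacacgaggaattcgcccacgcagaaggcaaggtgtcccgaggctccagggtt
Neurod2: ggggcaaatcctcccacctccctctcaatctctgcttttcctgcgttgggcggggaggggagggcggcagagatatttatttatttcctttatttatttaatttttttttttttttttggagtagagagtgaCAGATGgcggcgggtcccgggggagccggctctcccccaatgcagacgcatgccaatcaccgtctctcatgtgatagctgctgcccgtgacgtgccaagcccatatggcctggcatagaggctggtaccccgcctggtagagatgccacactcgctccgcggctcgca
The Neurod2 window holds 1 CAGATG and the Neurod1 window holds neither motif. Of 32851 promoter windows of this length in the table, 17.2% hold CAGATG, 16.3% CAGCTG and 30.6% at least 1 of them. A match is a description of the letters, not of binding. Of the 9 genes, 7 had an entry in the table.

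The genes most typical of immature neurons were alike in the 2 libraries. Dcx was at 679 CPM in 60TM and 679 CPM in WT, with a 95% interval of 0.923 to 1.08 for the ratio. Neurod1, lower in 60TM among dividing cells, was at 1585 CPM in 60TM immature neurons and 1520.1 CPM in WT ones, a ratio of 1.04 (0.989 to 1.10). Prox1 was at 985 CPM in 60TM and 961 CPM in WT, a ratio of 1.02 (0.958 to 1.10). It was higher in 60TM within the earlier group, at 563 CPM in 60TM and 418 CPM in WT, a ratio of 1.35 (1.17 to 1.55). Within the later group it was at 1482 CPM in 60TM and 1335 CPM in WT, a ratio of 1.11 (1.03 to 1.20). The earlier cells, lower in Prox1, were 42.6% (35.7 to 49.7) of the immature cells in 60TM and 33.6% (27.8 to 39.8) in WT. These intervals overlap, and the part of this in the Prox1 ratio was not tested.

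Sox11 and Igfbpl1 were detected in nearly every immature neuron, with a UMI in 188 of 188 thinned 60TM cells and 233 of 233 thinned WT cells for Sox11. Sox11 was at 5171 CPM in 60TM and 4871 CPM in WT, a ratio of 1.06 (1.03 to 1.09). Igfbpl1 was at 3277 CPM in 60TM and 3044 CPM in WT, a ratio of 1.08 (1.04 to 1.12). Calb2 was at 925 CPM in 60TM and 1012 CPM in WT, a ratio of 0.914 (0.854 to 0.977). Eomes, here a remnant of the progenitor stage, was at 217 CPM in 60TM and 186 CPM in WT, a ratio of 1.16 (1.003 to 1.35). These counting intervals are narrow, but with 1 library per genotype they do not show whether mice differ by as much.

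Hopx was low in immature neurons and higher in 60TM, at 45.8 CPM in 60TM and 26.3 CPM in WT, a ratio of 1.75 (1.21 to 2.53). The difference lay in the earlier group, with 64.8 CPM in 60TM and 22.5 CPM in WT, a ratio of 2.88 (1.66 to 5.20), where it rests on 55 UMIs in 60TM and 18 in WT. In the later group it was 24.8 CPM in 60TM and 29.5 CPM in WT. After thinning, the share of all immature neurons with a Hopx UMI was 6.38% in 60TM and 6.01% in WT, so the difference was not seen in that share. Without thinning, 41 of 202 60TM cells and 34 of 250 WT cells had one, a share ratio of 1.49 (0.924 to 2.42). In the earlier group, 30 of 86 60TM cells and 14 of 84 WT cells had one without thinning. Radial glia-like markers summed to 121 CPM in 60TM immature neurons and 96.1 CPM in WT ones, and reactive astrocyte genes to 102 CPM in 60TM and 44.1 CPM in WT. Microglial markers summed to 62.6 CPM in 60TM and 121 CPM in WT, and choroid plexus markers to 357 CPM in 60TM and 28.2 CPM in WT. Their part in the result was not tested. Of the 9 members, 1 (Hopx) passed 1.5-fold upwards and 1 (Neurod2) downwards. Over the 7943 genes counted, 2.64% were higher and 3.53% lower.

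Of 23 lineage regulators counted in immature neurons, 3 were at least 1.5-fold higher in 60TM and 2 lower. Those higher were Insm1 (ratio 1.57, at 83.0 CPM in 60TM and 53.0 CPM in WT), Sox5 (1.52) and Lhx9 (1.51). Insm1 and Sox5 encode factors of neuronal progenitors and early neurons. Those lower were Neurod4 (0.614), a basic helix-loop-helix factor, and Bcl11b, a zinc finger factor of maturing granule neurons, at 14.2 CPM in 60TM and 41.6 CPM in WT, a ratio of 0.342 (0.206 to 0.548). The 5 calls became 1 with cells thinned, with cells classed by marker score, at resolution 2 and with the members among the clustering genes. The list's median log2 ratio was 0.05 and that of all genes -0.01. The cytoskeletal and surface genes of immature neurons stood close to equality, with 0 higher and 1 lower of 23 and a median of -0.05. The lower gene was Gal, the neuropeptide galanin, at 33.4 CPM in 60TM and 59.0 CPM in WT, a ratio of 0.567 (0.403 to 0.789). Tubb3, a neuronal tubulin, had a ratio of 0.964, and Stmn1, a tubulin-binding protein, 1.02.

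**Figure D4:**
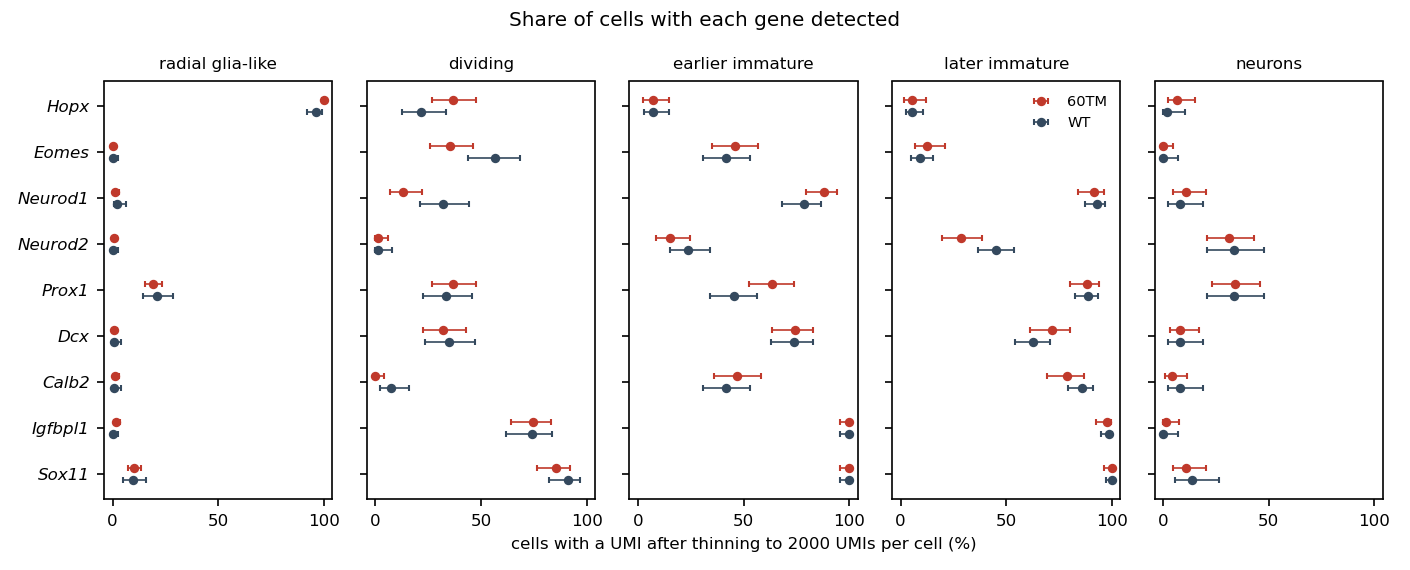
Share of cells with at least 1 UMI of each gene after thinning every cell to 2000 UMIs (horizontal axis, percent) in 5 panels by stage, with 60TM points above WT points and exact 95% binomial intervals. In the dividing panel Neurod1 is at 13.3% in 60TM and 31.9% in WT, and in the earlier immature panel Sox11 and Igfbpl1 are at 100% in both libraries.

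In neurons the genes of earlier stages were low in both libraries. Dcx was at 43.3 CPM in 60TM and 66.5 CPM in WT, a ratio of 0.652 (0.451 to 0.940), and Sox11 at 58.9 CPM in 60TM and 96.6 CPM in WT, a ratio of 0.610 (0.448 to 0.829). Neurod2 was at 207 CPM in 60TM and 168 CPM in WT, a ratio of 1.23 (1.01 to 1.5). Prox1 was at 211 CPM in 60TM and 251 CPM in WT, a ratio of 0.839 (0.706 to 0.998). Neurod1 was at 52.5 CPM in 60TM and 37.4 CPM in WT, and Hopx at 31.2 CPM in 60TM and 22.8 CPM in WT, both with intervals that include 1. Calb2 had 26 UMIs in 60TM, of which 1 cell held 21, and 25 UMIs in WT. Of 7 members counted, 0 passed 1.5-fold upwards and 2, Dcx and Sox11, downwards. Over the 7667 genes counted, 5.4% were higher and 7.84% lower.

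The kinds of neuron differed between the libraries. Neurons with at least 3 UMIs of Slc17a7, a vesicular glutamate transporter, were 55 of 88, or 62.5%, in 60TM and 27 of 69, or 39.1%, in WT. Those with at least 3 UMIs of Gad1 and Gad2, enzymes of GABA synthesis, were 16 of 88, or 18.2%, in 60TM and 19 of 69, or 27.5%, in WT. Interneuron-lineage markers summed to 509 CPM in 60TM and 1506 CPM in WT. The median depth was 6515 UMIs in 60TM neurons and 4645 UMIs in WT ones, and mitochondrial UMIs were 2.02% in 60TM and 0.833% in WT. Immediate early genes summed to 799 CPM in 60TM and 535 CPM in WT, and reactive astrocyte genes to 132 CPM in 60TM and 46.7 CPM in WT. Choroid plexus markers summed to 389 CPM in 60TM and 68.5 CPM in WT, and microglial markers to 117 CPM in 60TM and 297 CPM in WT. Their part in the results was not tested. Without the cells of Gad1 and Gad2, also an alternative chosen after the data were seen, the ratio of Neurod2 was 0.763, that of Prox1 0.672 and that of Sox11 0.484. The direction for Neurod2 thus turned. When cells were thinned, that of Dcx turned, to 1.65, and that of Prox1, to 1.32. Of 22 mature granule and pyramidal neuron genes, 6 were at least 1.5-fold higher and 1 lower in 60TM. Nrgn, a postsynaptic calmodulin-binding protein, was at 2474 CPM in 60TM and 1168 CPM in WT, a ratio of 2.12 (1.98 to 2.27). Fibcd1, a gene enriched in CA1 pyramidal neurons, had a ratio of 2.52 (1.66 to 3.95) and Camk4, a calcium-dependent kinase, 2.37 (1.26 to 4.78). Syt1, a synaptic vesicle calcium sensor, was the lower one, at 0.634 (0.594 to 0.676).

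Over all kept cells, the share with a UMI of each gene after thinning combines these shares of cells and levels. Hopx was detected in more 60TM cells, 2147 of 6949, than WT cells, 1080 of 5668, a ratio of 1.62 (1.51 to 1.75). Neurod1 was detected in 202 60TM cells and 239 WT cells, a ratio of 0.689 (0.569 to 0.835). The ratio was 0.594 (0.442 to 0.795) for Neurod2, 0.651 (0.590 to 0.718) for Prox1, 0.715 (0.586 to 0.872) for Calb2 and 0.789 (0.676 to 0.921) for Igfbpl1. It was 0.770 (0.566 to 1.05) for Eomes, 0.897 (0.750 to 1.07) for Dcx and 0.945 (0.833 to 1.07) for Sox11. Detection of 5 genes was thus lower in 60TM beyond counting error, and that of 3 was not distinguishable from WT. For Prox1 the lower share of oligodendrocytes in 60TM moves with the result, and its part was not tested.

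Pairs of genes were followed in single radial glia-like, dividing and immature cells. Of cells with an Eomes UMI, 72.4% in 60TM and 84.9% in WT also had Neurod1, and 81.0% (74.4 to 86.6) in 60TM and 94.0% (89.2 to 97.1) in WT also had Dcx. After thinning, the overlap of Eomes with Neurod1 was 62.7% (51.3 to 73.0) in 60TM and 64.8% (53.9 to 74.7) in WT, and with Dcx 55.4% in 60TM and 60.2% in WT. Both intervals overlap widely at equal depth. Of cells with Neurod1, 20.4% (14.9 to 26.9) in 60TM and 32.9% (26.8 to 39.4) in WT also had Neurod2 after thinning. Eomes and Prox1 were found together in 63.9% (52.6 to 74.1) of thinned 60TM cells with Eomes and 45.5% (34.8 to 56.4) of WT ones. These intervals overlap. Without thinning the shares were 89.7% in 60TM and 91.6% in WT, so the direction depended on depth. Igfbpl1 and Sox11 overlapped almost fully, as 95.8% of thinned 60TM cells with Igfbpl1 and 99.6% of WT ones had Sox11.

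Genes with the most similar pattern were ranked by the correlation of log2 levels over 26 points, 13 classes in 2 libraries, among genes with at least 200 UMIs. The points share libraries and classes, so the correlations are descriptions. They include each stage in both libraries, so the choice of genes used the same values as their ratios. The ratios of these genes are therefore not separate evidence for those of the members. Closest to Hopx was Sox9 (r = 0.946), followed by Ddo and Kctd14. Closest to Eomes was Mfap4 (0.972), then Draxin and Insm1, and closest to Igfbpl1 was Scrt2 (0.963), then Mfap4 and Draxin. Neurod1 was most like Sstr2 (0.974), Scrt2 and Dusp4, and in dividing cells these had ratios of 0.543, 0.644 and 0.532. Neurod2 was most like Cntnap5a (0.973), Lratd1 and Cnih3. In immature neurons these had ratios of 0.720, 1.05 and 0.867. Prox1 was most like its overlapping antisense gene Prox1os (0.953), then Igsf8 and Onecut2, Dcx was most like Zfp57 (0.968), Ypel1 and Rnf165, and Sox11 most like Mex3a (0.963), Ypel1 and Serf1. Calb2 was most like Kcnb2 (0.906), Zscan2 and Tbr1.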

How the data were processed

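Hippocampal cells of 60TM and WT mice were measured by 10x Genomics 3' RNA sequencing, in 1 library per genotype pooled from 3 mice. The deposited matrices hold raw UMI counts per gene and barcode. Per the submitters' processing notes they were made with Cell Ranger 5.0.0 on GRCm38. The annotation release, strand and intron handling are not stated. Deposited lists of genes and barcodes give names without values (other). Barcodes had at least 500 UMIs.

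Barcodes with fewer than 500 genes (338 in 60TM and 264 in WT) or over 15% mitochondrial UMIs (384 in 60TM and 232 in WT) were removed. Scrublet was run on all barcodes of a library, and its highest scores were also removed at 0.8% per 1000 barcodes (610 in 60TM and 377 in WT). These sets of removed barcodes overlap. Cells of both libraries were clustered without integration in scanpy 1.11.5 (10000 UMIs per cell, log scale, 2000 variable genes, 30 components, 15 neighbours, Leiden resolution 1, sub-clusters at 0.3), leaving out the 9 genes. A cluster took a name from 3 or more markers. Unnamed clusters held 12.7% of 60TM cells and 9.10% of WT cells and were not used.

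UMIs were summed per class and library, scaled to CPM and compared by exact conditional-binomial intervals. Shares have exact Clopper-Pearson intervals. A gene counted with at least 50 UMIs in the class and was called at 1.5-fold. List medians use log2 of CPM + 5. The interval code was tested on simulated data. From each list at most 3 genes were named at either end of the ratios; others named (Id3, Sox2, Sox9, Hes1, Mki67, Neurog2, Tubb3 and Stmn1) were chosen after their values were seen. The members and lists were chosen with earlier results of these data known.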

Additional observations from a re-analysis of the deposited data

How the results depend on the processing

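No paired analysis was possible because each genotype has 1 library, and no replicate could be left out. Of 322 ratios of single genes under alternatives, 268 moved by less than their counting interval, 53 by more and 1, of a gene past 1.5-fold, turned: Dcx in neurons was 1.65 with cells thinned. Counting every gene, 27 ratios lay on the other side of 1, of which 20 belong to genes whose reported interval includes 1. The other 7 are Dcx and Prox1 (1.32) in thinned neurons, Neurod2 in neurons (0.763 without cells of Gad1 and Gad2, 0.782 with cells classed by marker score) and Igfbpl1 in dividing cells (1.01 with no doublets removed and at resolution 2, 1.03 with 200 genes and 5%). The Neurod1 ratio in dividing cells ran from 0.265 to 0.550 over the alternatives and the Neurod2 ratio in immature neurons from 0.492 to 0.638. That of Hopx in immature neurons ran from 1.47 to 2.64. Calb2 in dividing cells reached 0.359 with no doublets removed, and Sox11 in neurons ran from 0.178 to 0.861. The causes of the changes below were not tested.

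Numbers of genes at least 1.5-fold different, higher and lower together, changed as follows. The share over all genes is given for the main setting only. These counts therefore show how calls depend on the processing and are not results about the members. With cells thinned, members numbered 3 in dividing cells, 1 in immature neurons and 0 in neurons, regulators 1 in immature neurons and mature genes 3. With no doublets removed, members numbered 2 in radial glia-like cells, 3 in dividing cells and 1 in neurons, cell cycle genes 4, and regulators 1 in dividing cells and 3 in immature neurons. Keeping cells from 200 genes and up to 5% mitochondrial UMIs, members numbered 2 in dividing cells, cell cycle genes 3, and regulators 0 in dividing cells and 3 in immature neurons. With cells classed by their highest marker score, members numbered 2 in radial glia-like cells, 4 in dividing cells and 7 in neurons, cell cycle genes 4, regulators 6 in dividing cells and 1 in immature neurons, cytoskeletal genes 2 and mature genes 4. With the mean over cells, members numbered 2 in dividing cells, 1 in immature neurons and 4 in neurons. At resolution 2, cell cycle genes numbered 4 and regulators 0 in dividing cells and 1 in immature neurons. With the members among the clustering genes, regulators numbered 1 in immature neurons. With the microglial level subtracted, cytoskeletal genes numbered 2. At 2-fold, stem cell genes numbered 2, regulators 0 in dividing cells and 1 in immature neurons, cytoskeletal genes 0 and mature genes 3. Without cells of interneuron-lineage markers, members numbered 2 and cell cycle genes 3 in dividing cells, and without cells of Gad1 and Gad2, members numbered 1 and mature genes 3 in neurons. The share ratio was 1.69 for radial glia-like cells and 0.507 for immature neurons without microglia, border macrophages and oligodendrocytes, and that of cells with Sox11 over all kept cells was 1.09 unthinned. Genes with few UMIs, such as Calb2 in dividing cells, are limited by depth.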
